A study of Mus musculus with 24 samples.

Results

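The passenger strands of microRNA (miRNA) hairpins, written with an asterisk and called star strands, were followed in mouse muscle stem cells as they left quiescence after muscle injury. Members were all assays whose name ends in an asterisk, except those whose miRNA number lies in a list of numbers that stands for the imprinted Dlk1-Dio3 region. That left 109 of the 584 miRNA assays on the arrays, 93 named for mouse and 16 for rat. The number list left out 20 other star assays, among them miR-31*, miR-183* and miR-378*, whose hairpins are not in that region. All cells came from male C57BL/6 mice aged 8 weeks. Quiescent muscle stem cells (QSC, 0 h) formed 1 group, and activated muscle stem cells (ASC) formed 3 more, at 36, 60 and 72 h after injury. No allele or agent other than the injury is labelled, and the labels name no cell sort. Each group has 3 replicates, each run on 2 TaqMan rodent miRNA cards (A and B), and the series' text calls the replicates technical. The p-values therefore measure technical spread and not the spread between mice.

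A miRNA hairpin is cut by Dicer into a short duplex. One strand, the guide, is usually kept by an Argonaute protein and pairs with messenger RNAs through its seed, the bases near its 5′ end. The other, the star strand, is usually degraded soon after, so its level is often read as a sign of recent hairpin processing, although some star strands are also loaded and repress targets of their own. Where several hairpin copies make the same guide, the star strands often differ in sequence and show which copy is being processed.

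RefSeq (GRCm38.p6) hairpins were matched to 51 of the 109 star assays, 50 of them with a star sequence. The star strand lay on the 3p arm in 37 and on the 5p arm in 14. Capitals mark the seed, bases 2 to 8. The first set shows star strands of hairpins whose guides share 1 seed or belong to the same clusters (miR-17, miR-18a and miR-20a on chromosome 14, miR-93 and miR-106b on chromosome 5), because several of them were first detected after injury while miR-93* hardly moved relative to U6.
miR-17*: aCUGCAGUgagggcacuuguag
miR-18a*: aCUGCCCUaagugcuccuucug
miR-20a*: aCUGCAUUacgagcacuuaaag
miR-106b*: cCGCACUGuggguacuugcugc
miR-93*: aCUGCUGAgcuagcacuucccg
miR-93 guide: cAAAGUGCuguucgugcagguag

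The next set shows the star strands of the miR-15, miR-16 and miR-322 hairpins, whose guides share the seed AGCAGCA while their star seeds all differ.
miR-15b*: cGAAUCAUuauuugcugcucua
miR-16*: cCAGUAUUgacugugcugcuga
miR-322*: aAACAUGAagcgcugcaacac
miR-16 guide: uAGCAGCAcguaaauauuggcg

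The last set shows the star strands of both miR-24 copies, which share their first 16 bases, seed included, and the pair miR-30a* and miR-30e*, which also share a seed.
miR-24-1*: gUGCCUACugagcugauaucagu
miR-24-2*: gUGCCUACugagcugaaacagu
miR-24 guide: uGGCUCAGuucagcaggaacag
miR-30a*: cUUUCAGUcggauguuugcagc
miR-30e*: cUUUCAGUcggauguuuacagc

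Guide families were split by their star strands. The 7 matched let-7 hairpins share the guide seed GAGGUAG and carry 5 different star seeds. The 5 hairpins with guide seed AAAGUGC carry 4, and the 3 miR-29 hairpins carry 3. None of the 44 star seeds equalled a guide seed of the matched hairpins, and 5 star seeds were shared by several stars.

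Levels are log2 values, the mean threshold cycle (Ct, the PCR cycle at which signal appears) of U6 small nuclear RNA on an array minus the Ct of the assay, so a higher value means more RNA. A change is the difference of mean levels, given with its SE from the limma fit, and rests on 3 arrays a group unless stated. Detection on an array required a Ct below 35 in each spot of the assay. Assays differ in efficiency, so levels are compared within an assay and not between assays. In bulk RNA, fewer cells of a type and less RNA per cell cannot be told apart. At that threshold the limit of detection corresponded to a level of -20.29 at 36 h and of -19.52 to -19.40 in the other groups, so 36 h arrays reached lower levels. Other control RNAs moved against U6, in both directions. On card B, which holds all star assays, snoRNA202 changed from 0 h by -1.11 at 36 h, -2.55 at 60 h and -2.61 at 72 h. There snoRNA135 changed by -0.35, -0.40 and -0.35, and the control RNA Y1 by 1.03, 0.26 and 0.72. All 5 myogenic marker miRNAs, including miR-206 and miR-133b, were detected on all 3 arrays of each group. Relative to U6, miR-1, miR-133a and miR-133b were called higher at all later times and miR-206 at 60 and 72 h. In contrast, miR-489 changed by -1.4, -4.85 and -6.66 and was called lower each time.

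Of the 109 star strands, 35 were detected on no array and 40 on all 12. On all 3 arrays of a group, 46 were detected in quiescent cells and 61, 52 and 48 at the later times in turn. That is 42.2% of star strands at 0 h and 56.0% at 36 h, against 45.1% and 54.1% of the 455 other assays. Star strands of the muscle miRNAs miR-1 and miR-133a were detected on no array, while both guides were called higher at all later times. A guide assay of the same hairpin existed for 103 of the star strands. Both strands were detected somewhere for 64 of them, the guide alone for 24, the star alone for 7 and neither for 8. The 7 were miR-141*, miR-330*, miR-425*, miR-470*, miR-879*, miR-881* and the rat assay of miR-23a*. Of these, miR-425* and miR-141* were detected on all 12 arrays. The star miR-425* was at -14.48, -14.48 and -14.74 at 0 h and -13.16, -13.26 and -13.11 at 36 h, a rise of 1.39 ± 0.24 (0.53 and no call at 60 h) that was not called with the mean of commonly detected miRNAs (0.62).

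Against quiescent cells and relative to U6, most star strands that moved rose at 36 h, and the balance turned by 72 h. At 36 h 27 of the 51 tested were called higher (limma, Benjamini-Hochberg adjusted over all assays, and at least 2-fold) and 2 lower, with a median change of 1.16. Over all 272 assays tested, 44.1% were higher and 12.1% lower (56.2% in all), with a median of 0.82. At 60 h 14 of 44 were higher and 7 lower (median 0.41), against 28% and 36.4% (64.4% in all) of 250 assays (median -0.37). At 72 h 10 of 44 were higher and 13 lower (median -0.11), against 20.9% and 45.9% (66.8% in all) of 244 assays (median -0.77).

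The split depended on the normalizer, as the plot of called star strands by normalizer shows. With snoRNA202, 38, 42 and 36 star strands were higher at 36, 60 and 72 h, and 0 were lower each time. Over all assays the higher and lower counts were 180 and 6 of 272, 179 and 20 of 250, and 166 and 24 of 244. The median of all assays moved to 1.74, 2.08 and 2.04. With snoRNA135 the star strand counts, higher and lower, were 29 and 0, 18 and 6, and 14 and 11. Those over all assays were 139 and 24, 82 and 76, and 65 and 85, with medians of 1.05, 0.00 and -0.17. With the mean of commonly detected miRNAs the star strand counts were 15 and 7, 14 and 7, and 14 and 11. Those over all assays were 59 and 89, 74 and 86, and 72 and 79, with medians of -0.36, -0.30 and -0.10. Groups did not overlap for 33 of 46 star strands detected on all arrays of both groups at 36 h, 32 of 41 at 60 h and 30 of 40 at 72 h, beside 82.9%, 87.4% and 85.4% of all such assays.

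**Figure D1:**
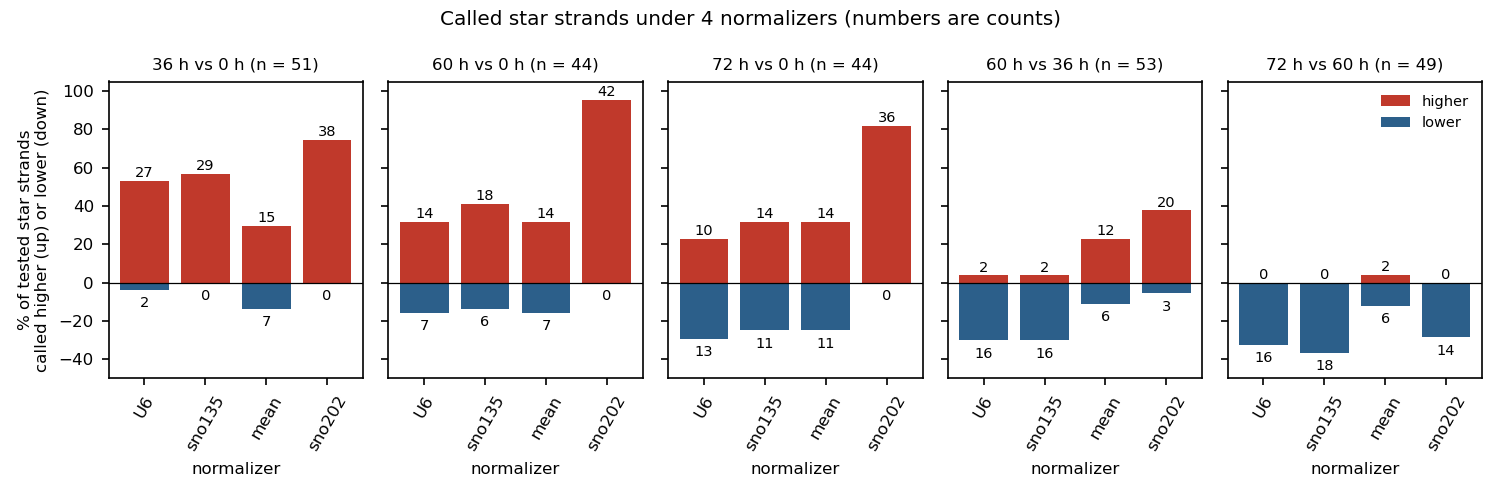
Share of tested star strands called higher (red, above 0) or lower (blue, below 0) in 5 comparisons under 4 normalizers, with counts printed on the bars. U6, snoRNA135 (sno135) and the mean of commonly detected miRNAs (mean) give both directions at 60 and 72 h against 0 h, while snoRNA202 (sno202) gives 42 and 36 higher and 0 lower.

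Several star strands of the miR-17-92 cluster and of its paralogous clusters were first detected after injury. Hairpins within a cluster are transcribed together, and these clusters are known for promoting cell cycle entry. Of 11 such star assays 5 were detected, and 3 of them (miR-17*, miR-20a* and miR-106b*) were found on all 3 arrays of each later group and on at most 1 array at 0 h. Over all 584 assays, 7.71% were detected in this way at 36 h against 0 h, 4.79% at 60 h and 4.45% at 72 h. Each time was set against 0 h only, so an assay can count at several times. Among the 109 star strands the numbers were 10, 8 and 5.

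The star strand miR-20a* was not detected on the 3 arrays at 0 h and had levels of -14.73, -13.88 and -13.77 at 36 h, -12.69, -12.73 and -12.57 at 60 h, and -15.17, -14.50 and -14.63 at 72 h. Set against the detection limit, it was at least 39.9-fold higher at 36 h, at least 110-fold at 60 h and at least 25.6-fold at 72 h. Its 60 h arrays all lay above its 36 h and 72 h arrays. It rose by 1.46 ± 0.28 (SE) from 36 to 60 h (adjusted p = 0.00119, limma) and fell by 2.10 ± 0.28 from 60 to 72 h (adjusted p = 0.000142).

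The star strand miR-17* was likewise not detected at 0 h and had levels of -14.56, -14.63 and -15.10 at 36 h, -15.04, -14.86 and -15.85 at 60 h, and -17.09, -17.91 and -16.30 at 72 h. The bounds were at least 25.6-fold, 18.3-fold and 5.08-fold. In contrast to miR-20a* its 36 and 60 h arrays overlapped. The fall from 60 to 72 h was 1.85 ± 0.42 (adjusted p = 0.00373).

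The star strand miR-18a* was measured on every array, at -14.67, -14.69 and -14.58 at 0 h, -12.35, -12.16 and -12.34 at 36 h, -11.62, -11.51 and -11.62 at 60 h, and -12.06, -12.20 and -12.33 at 72 h. All later arrays lay above all 0 h arrays. The changes from 0 h were 2.36 ± 0.11, 3.06 ± 0.11 and 2.45 ± 0.11, or 5.14-fold, 8.35-fold and 5.45-fold (adjusted p = 7.76e-09, 6.59e-10 and 3.56e-09, limma), and they were called higher under all 4 normalizers.

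From the paralogous cluster on chromosome 5, miR-106b* was found on 1 array at 0 h (-15.86) and rose to -13.31, -11.87 and -13.31 at 36 h and -11.48, -12.12 and -11.59 at 60 h, before -13.99, -14.40 and -14.06 at 72 h. Its 36 and 60 h arrays overlapped. Against the highest single spot at 0 h it was 5.99-fold, 12.9-fold and 2.39-fold higher.

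Its neighbour miR-93* stood apart, since it hardly moved relative to U6 while its guide rose. Levels of miR-93* were -9.11, -8.86 and -8.79 at 0 h and stayed between -9.36 and -8.35 on all later arrays, with changes of 0.18, 0.48 and -0.42 that were not called. With snoRNA202 its changes were 1.29, 3.02 and 2.19, all called higher. With snoRNA135 and with the mean of commonly detected miRNAs it was not called at any time. Relative to U6 the guide miR-93 rose by 3.97, 4.52 and 3.23. Star minus guide change was -3.79 ± 0.11, -4.04 ± 0.11 and -3.65 ± 0.11 (log2), with adjusted p-values of 5.39e-16, 1.37e-16 and 8.08e-16 in the limma fit of star against guide change.

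**Figure D2:**
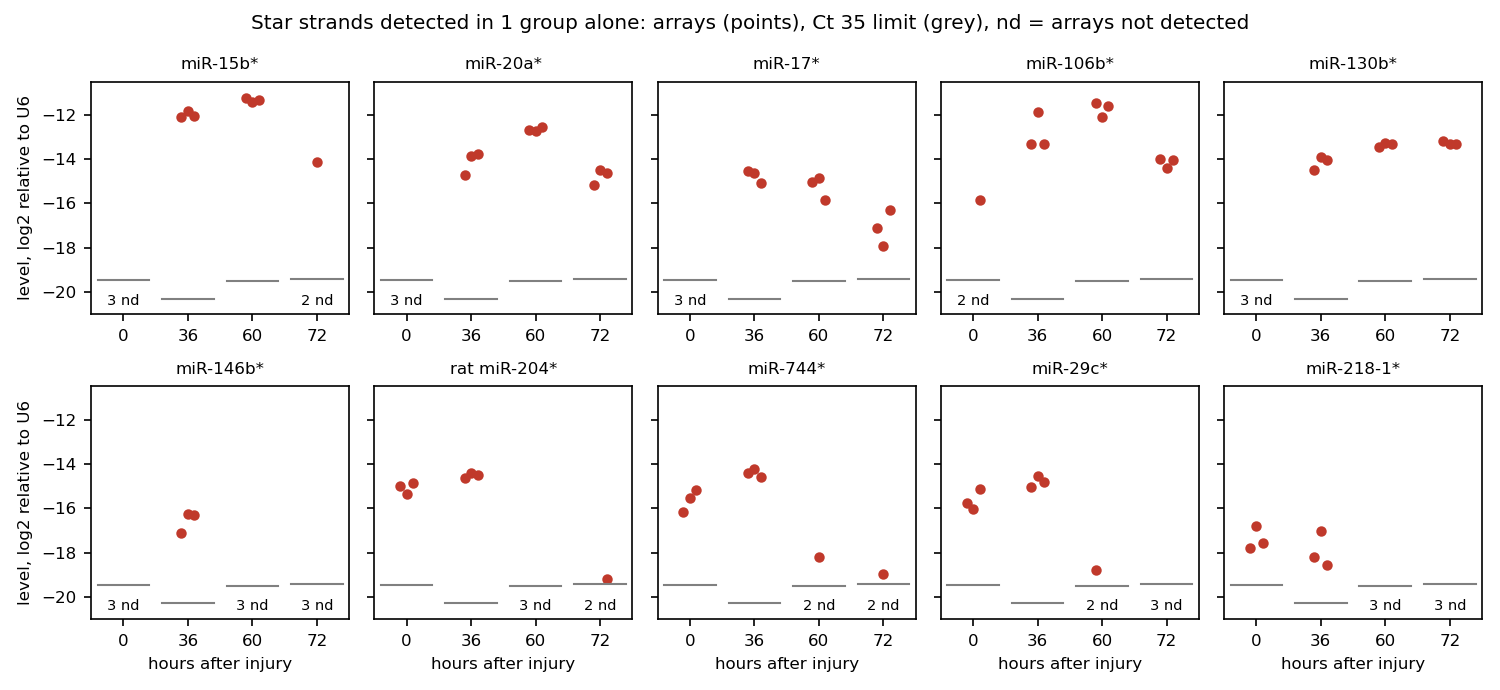
Levels (log2 relative to U6) of 10 star strands detected in 1 group alone in some comparison, one point per array, by hours after injury, with the level at Ct 35 in grey and the number of arrays not detected (nd) printed. The 4 panels miR-15b*, miR-20a*, miR-17* and miR-130b* have no point at 0 h, and the lower row, apart from miR-146b*, has points at 0 and 36 h and few or none later.

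The miR-15, miR-16, miR-322 and miR-503 hairpins make guides that share most of their seed and restrain cyclins and other cell cycle genes. All 5 of their star strands on the cards were detected. At 36 h the 4 that could be tested rose, with a median of 2.57, and the fifth, miR-15b*, was detected in the later group alone. At 60 h 2 of 4 rose and at 72 h 4 of 4. Under the other 3 normalizers all these changes stayed above 0, and the call of miR-503* at 36 h was lost with the mean of commonly detected miRNAs (0.88).

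No spot of miR-15b* had a Ct below 35 at 0 h, and its levels were -12.09, -11.82 and -12.04 at 36 h and -11.23, -11.41 and -11.35 at 60 h. This made it at least 176-fold and at least 277-fold higher, the largest bounds among the star strands. At 72 h 1 array gave -14.14 and the other 2 no Ct below 35. The guide miR-15b changed by 1.17, 1.57 and 0.11 over the same times. These bounds take an empty well as a level below the limit; an empty well can also be a failed reaction, and 1 array at Ct 29.8 beside 2 empty ones at 72 h shows that this assay was not always read.

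For miR-16* the 2 detected 0 h arrays gave -18.26 and -17.19, and later arrays gave -14.59, -14.88 and -14.59 at 36 h, -14.43, -14.50 and -14.93 at 60 h, and -15.49, -15.75 and -15.70 at 72 h. The changes were 3.04 ± 0.29, 3.10 ± 0.29 and 2.08 ± 0.29 (adjusted p = 6.28e-06, 4.06e-06 and 8.68e-05, limma). The guide miR-16 changed by 1.36, 0.19 and -0.76, so the star exceeded its guide by 1.67 ± 0.28, 2.91 ± 0.28 and 2.84 ± 0.28 (adjusted p = 4.46e-05, 3.71e-08 and 4.14e-08). The miR-16 guide assay does not tell hairpin copies apart. The star strand miR-15a* was at -15.14, -16.45 and -15.72 at 0 h and -12.62, -12.39 and -12.57 at 36 h. It rose by 3.25 ± 0.26, 2.53 ± 0.26 and 1.55 ± 0.26, and its later arrays did not overlap those at 0 h.

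In the cluster on the X chromosome (miR-503* at chrX:53053984-53054054 and miR-322* at chrX:53054255-53054349, GRCm38.p6, minus strand) the guide of miR-322 outran its star. The star miR-322* was at -15.12, -16.12 and -14.90 at 0 h, -13.37, -12.94 and -13.51 at 36 h, -14.70, -15.36 and -14.59 at 60 h, and -14.15, -14.12 and -13.99 at 72 h. Its 60 h arrays overlapped those at 0 h. The changes were 2.10 ± 0.32, 0.50 and 1.29 ± 0.32, while the guide rose by 6.64, 5.96 and 5.96. Star minus guide change was -4.53, -5.47 and -4.66 (SE 0.43 each), the largest shortfall of any pair in each comparison. The other star of the cluster, miR-503*, changed by 1.66 ± 0.17, 0.70 and 1.31 ± 0.17.

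The miR-24 guide is made by 2 hairpins that its assay cannot tell apart, and their star strands moved differently. One copy lies with miR-27a on chromosome 8 (miR-24-2, chr8:84208815-84208921) and the other with miR-27b on chromosome 13 (miR-24-1, chr13:63301208-63301275, GRCm38.p6). Clustered with miR-23, these miRNAs are known in muscle, where miR-27 represses Pax3. The chromosome 8 star rose after injury, and the chromosome 13 star did not pass the test at 36 h and was not detected later.

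Levels of miR-24-2* were -13.10, -13.42 and -13.16 at 0 h, -10.21, -9.98 and -10.15 at 36 h, -11.38, -11.20 and -11.43 at 60 h, and -12.22, -12.54 and -12.53 at 72 h. All later arrays were above those at 0 h. The changes were 3.11 ± 0.14 (8.65-fold, adjusted p = 5.03e-09, limma), 1.89 ± 0.14 (adjusted p = 2.48e-07) and 0.80, the last below 2-fold. The miR-24 guide changed by 0.60, -0.67 and -1.58, so the star exceeded it by 2.52, 2.56 and 2.37 (SE 0.14 each).

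Levels of miR-24-1* were -18.76 and -17.14 on the 2 detected arrays at 0 h and -17.69, -19.07 and -18.20 at 36 h, and it was detected on no array at 60 or 72 h. The groups overlapped. At 36 h the change of miR-24-1* minus that of miR-24-2* was -3.48 ± 0.54 (adjusted p = 5.56e-05, limma). It was -3.55, -3.51 and -3.59 with snoRNA202, snoRNA135 and the mean of commonly detected miRNAs. Both assays are on card B, so the normalizer nearly cancels in this difference, and these values are no separate test of it. The fit took the values of both assays as independent although the same arrays gave them, so its SE and p-value ignore that pairing.

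The neighbouring star strand miR-27a* was at -11.58, -11.41 and -11.21 at 0 h and at -9.14, -9.04 and -9.16 at 36 h, a rise of 2.28 ± 0.12 (adjusted p = 1.59e-08, limma) followed by changes of 1.46 ± 0.12 at 60 h and 0.17 at 72 h. The star strand miR-27b* changed by 1.03 ± 0.21, 0.59 and -0.11. Its call at 36 h was lost with the mean of commonly detected miRNAs (0.25) and when 0 h replicate 1, 0 h replicate 2 or 36 h replicate 2 was left out, where it was 0.89, 0.94 and 0.88. Whether miR-27a* and miR-27b* changed by different amounts was not tested. Whether the assays tell the close sequences of the miR-24 stars apart was not tested.

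**Figure D3:**
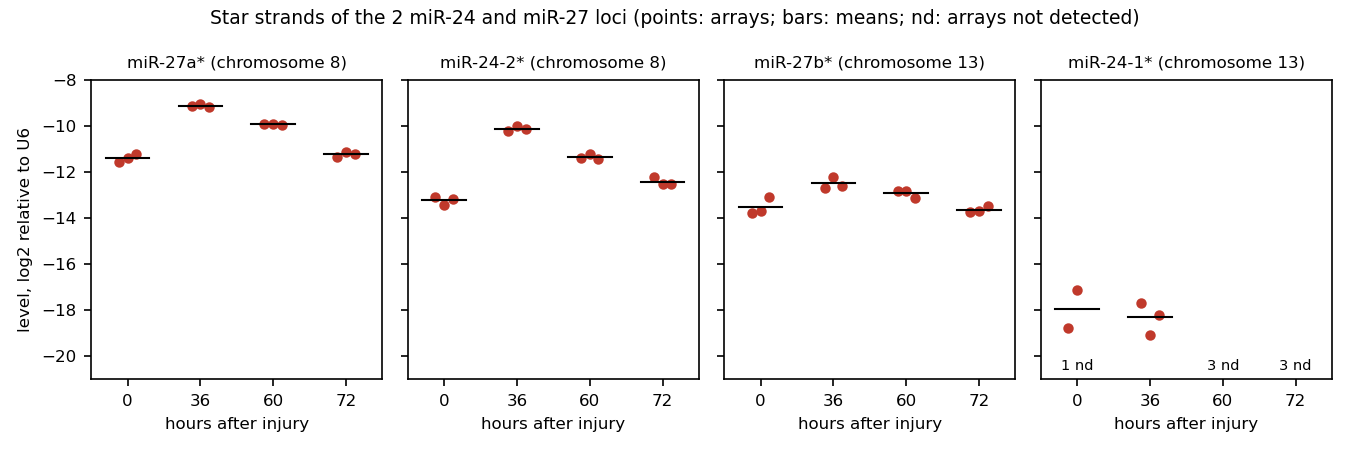
Levels (log2 relative to U6) of the star strands of miR-27a and miR-24-2 on chromosome 8 and of miR-27b and miR-24-1 on chromosome 13, one point per array with a bar at each group mean, by hours after injury, nd marking arrays not detected. At 36 h miR-24-2* rises from its 0 h mean of -13.23 to -10.11, while miR-24-1* goes from -17.95 to -18.32 and is not detected at 60 and 72 h.

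In the miR-29 family, known for repressing collagens and other matrix genes, 3 hairpins with the same guide seed had 3 different star courses relative to U6. The star strand miR-29a* was at -16.57, -18.35 and -14.58 at 0 h, -12.06, -11.81 and -12.12 at 36 h, -13.10, -13.36 and -12.93 at 60 h, and -14.60, -15.15 and -14.63 at 72 h. Its wide spread at 0 h overlapped with 72 h only. It rose by 4.50 ± 0.71 and 3.37 ± 0.71 (adjusted p = 0.000142 and 0.00107, limma), and the 72 h change of 1.71 (adjusted p = 0.0437) lost its call when any one array was left out except 0 h replicate 3, with 0.78 as the lowest value.

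The adjoining hairpin on chromosome 6 gave miR-29b*, whose 12 levels all lay between -10.16 and -9.72. Its changes relative to U6 were 0.07, 0.04 and 0.04, while the guide miR-29b rose by 2.93 and 3.06 and was back at 0.10 at 72 h. With snoRNA202 the changes of miR-29b* were 1.18, 2.59 and 2.65, all called higher. With snoRNA135 and with the mean of commonly detected miRNAs it was not called at any time. A rat assay named for miR-29b-1*, the copy matched to this hairpin, was detected on 1 array alone, at 36 h (-19.71, Ct 34.4). Why it differed from the mouse assay, which was flat relative to U6, was not tested. The third star, miR-29c*, was detected on all arrays at 0 h (-15.75, -16.03 and -15.11) and 36 h, on 1 array at 60 h (-18.78) and on none at 72 h.

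For miR-30, a family made in most tissues, the stars miR-30a* and miR-30e* come from different chromosomes and moved alike. Levels of miR-30a* were -6.67, -6.44 and -6.29 at 0 h, -6.86, -6.72 and -6.76 at 36 h, -8.21, -8.07 and -8.17 at 60 h, and -8.83 and -8.81 at 72 h, with 2 arrays at the latter value. Relative to U6 it fell by 1.69 ± 0.12 at 60 h and by 2.35 ± 0.12 at 72 h (adjusted p = 1.67e-07 and 8.29e-09, limma), whereas with snoRNA202 the values were 0.86 and 0.26. The star strand miR-30e* fell by 1.42 ± 0.14 and by 2.04 ± 0.14, against 1.13 and 0.57 with snoRNA202. A further member, the rat assay of miR-30d*, was not detected at 0 h and was at least 14.2-fold higher at 36 h and 10.6-fold at 60 h. The guides of the pair did not fall at 36 h (0.93 for miR-30a, below 2-fold, and 1.15 for miR-30e), when both stars were called below their guides, by -1.25 and -1.31, calls that were lost with the mean of commonly detected miRNAs. At 60 and 72 h neither star was called apart from its guide. Whether the assays tell these close sequences apart was not tested.

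Let-7 miRNAs mark differentiated cells and repress growth genes. Of 8 let-7 star strands 7 were detected but only let-7a*, let-7c-1* and let-7g* could be tested. The star let-7c-1* rose by 1.54 ± 0.20 at 36 h (0.77 and no call with the mean of commonly detected miRNAs) while its guide let-7c changed by -0.72, and the star exceeded the guide by 2.26, 2.90 and 2.89 (SE 0.21 each) at 36, 60 and 72 h. The let-7c guide assay does not tell hairpin copies apart. Relative to U6, let-7a* fell by 1.95 ± 0.13 and let-7g* by 1.99 ± 0.41 at 72 h, but with snoRNA202 these values were 0.66 and 0.62. The stars let-7i* and, on a rat assay, let-7e* were detected on all 3 arrays at 36 h and on none at 0 h, at least 4.18-fold and 1.79-fold higher. The let-7a guide assay was read near Ct 24.8 on all 3 arrays at 36 h, on 1 array at 0 h and on no later array, an example of the empty wells that limit statements on absence.

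The 4 assays of miR-99 and miR-125 star strands, of which 2 are named for miR-125b*, are of hairpins whose guides are enriched in stem and progenitor cells. All 4 rose at 36 h relative to U6 and then separated. For the rat assay of miR-99a* the 0 h mean is that of 2 arrays. With the mean of commonly detected miRNAs miR-99b* kept its call at 36 h (1.58) and the rat assay of miR-99a* (1.17) and both assays of miR-125b* (0.55 and 0.39) lost theirs. The star miR-99b* was at -14.43, -15.02 and -14.30 at 0 h, -12.24, -12.30 and -12.15 at 36 h, -11.89, -11.93 and -11.91 at 60 h, and -12.06, -12.46 and -12.41 at 72 h. It stayed above its 0 h arrays at all times, by 2.36, 2.67 and 2.27 (SE 0.19 each), while its guide changed by 0.93, 1.06 and -0.09. The star miR-125b* went the other way after 36 h, with levels of -14.98, -14.20 and -13.66 at 0 h, -13.19, -12.56 and -13.12 at 36 h, -15.59, -15.67 and -16.04 at 60 h, and -16.79, -17.29 and -16.81 at 72 h. It rose by 1.33 ± 0.32 at 36 h, a call that was lost without 0 h replicate 1, and fell by 1.49 ± 0.32 and 2.68 ± 0.32 relative to U6 at 60 and 72 h, where snoRNA202 gave 1.06 and -0.07. The rat assay of the same name gave 1.16, -1.19 and -2.03, with 1.35 and 0.58 at 60 and 72 h under snoRNA202.

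Outside these families, miR-455* showed the largest rise among tested star strands. It was at -18.42, -18.70 and -16.67 at 0 h, -13.34, -13.48 and -13.27 at 36 h, -13.68, -13.76 and -13.59 at 60 h, and -13.68, -14.29 and -14.30 at 72 h. All later arrays lay above those at 0 h. The changes were 4.57 ± 0.43 (23.7-fold, adjusted p = 2.62e-06, limma), 4.26 ± 0.43 (19.1-fold, 3.41e-06) and 3.84 ± 0.43 (14.3-fold, 7.80e-06). Its guide changed by 1.52, 0.13 and -0.58, and the star exceeded it by 3.05, 4.12 and 4.42 (SE 0.48 each).

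The star strand miR-186* was at -16.47, -16.73 and -15.92 at 0 h, -13.75, -13.17 and -13.45 at 36 h, -12.66, -12.64 and -12.45 at 60 h, and -13.47, -13.76 and -13.81 at 72 h. It rose by 2.92, 3.79 and 2.69 (SE 0.22 each), with its highest arrays at 60 h, and its guide rose by 1.88, 2.06 and 1.52. The star miR-193* was at -12.28, -11.71 and -12.03 at 0 h, -10.05, -10.09 and -10.03 at 36 h, -10.27, -10.17 and -10.28 at 60 h, and -11.11, -11.11 and -11.02 at 72 h. It rose by 1.95 ± 0.14 and 1.77 ± 0.14 at 36 and 60 h (adjusted p = 3.01e-07 and 4.08e-07, limma). Neither change was called apart from that of its guide, with differences of 0.2 ± 0.62 and 0.73 ± 0.62. That guide was detected on 2 arrays at 0 h, at a mean Ct of 33.7 near the limit, so this comparison is imprecise.

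The star miR-130b* was not detected at 0 h and was at -14.50, -13.91 and -14.04 at 36 h, -13.45, -13.26 and -13.30 at 60 h, and -13.17, -13.32 and -13.31 at 72 h. It was at least 39.2-fold, 68.9-fold and 72.2-fold higher, and its 60 and 72 h arrays overlapped, which those of miR-17* and miR-20a* did not.

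Of the growth and stress miRNAs, miR-21 is induced by injury and growth signals in many tissues. Its star was at -17.92 and -17.16 on the 2 detected arrays at 0 h, -14.18, -13.94 and -14.36 at 36 h, -15.05, -15.78 and -15.95 at 60 h, and -16.73, -16.12 and -16.36 at 72 h. It rose by 3.38 ± 0.32, 1.94 ± 0.32 and 1.14 ± 0.32 (adjusted p = 6.03e-06, 0.000297 and 0.00827, limma), the last lost without 72 h replicate 2. The guide rose by 6.62, 5.93 and 4.49, and star minus guide change was -3.24, -3.98 and -3.36 (SE 0.31 each). The stars miR-22* and miR-34c* rose by 1.68 ± 0.12 and 1.79 ± 0.18 at 36 h, the first without a call with the mean of commonly detected miRNAs (0.91).

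The largest fall relative to U6 was that of miR-676*, from -13.54, -13.47 and -12.99 at 0 h to -15.70, -15.48 and -15.27 at 60 h and -16.48, -16.63 and -16.70 at 72 h. The changes were -2.15 ± 0.17 and -3.27 ± 0.17 (adjusted p = 4.25e-07 and 9.78e-09, limma), against 0.40 and -0.66 with snoRNA202. Its guide changed by -3.66 and -5.08, so the star fell less than the guide. The star miR-33*, made from an intron of the sterol regulator Srebf2, fell by 2.59 ± 0.30 at 72 h relative to U6, where snoRNA202 gave 0.02. The star miR-26b* fell by 1.46 ± 0.15 and miR-181a-1* by 1.14 ± 0.29 at 72 h (1.15 and 1.47 with snoRNA202), the latter losing its call with snoRNA135, with the mean of commonly detected miRNAs (-0.77) and without 72 h replicate 3 (-0.85). Their guides changed by -2.94 and -3.11, so both stars exceeded their guides, by 1.48 ± 0.16 and 1.97 ± 0.32. For miR-26b* that call was lost with snoRNA135 (0.96) and with the mean of commonly detected miRNAs (0.81).

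The rat assay of miR-204*, and miR-744*, miR-29c* and miR-218-1*, were detected on all 3 arrays at 0 h and at most 1 at 60 h and at 72 h, with miR-204* at -15.00, -15.35 and -14.88 at 0 h and at least 21.7-fold lower at 60 h. Over all assays, 3.94% were detected at 0 h and not at 60 h in this way, and 4.79% at 72 h, and 5 star strands at each time. The fifth was miR-297a* at 60 h and miR-191* at 72 h, whose 0 h levels were 1.69-fold and 1.36-fold above the highest later spot.

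In the first 36 h, 2 star strands fell, miR-141* by 1.29 ± 0.13 and miR-135a* by 1.03 ± 0.14 relative to U6 (adjusted p = 3.18e-06 and 4.21e-05, limma), while snoRNA202 gave -0.19 and 0.07 and snoRNA135 gave -0.95 and -0.69, none of them called. The call of miR-135a* was also lost without 0 h replicate 3 (-0.92) and without 36 h replicate 1 (-0.97). Levels of miR-141* were -12.09, -11.87 and -11.67 at 0 h and -13.16, -13.15 and -13.20 at 36 h, without overlap. The guide of miR-141, an epithelial miRNA, was detected on no array.

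Of 5 star assays of stromal and endothelial hairpins 3 were detected, and the 2 that could be tested, miR-214* and miR-199b*, rose at 36 h. The third, miR-10b*, was found on 1 array each at 0 h (-17.57) and 36 h (-17.85). Of 2 blood star assays 1, miR-146b*, was detected. The miR-199 and miR-214 hairpins are made in fibroblasts and other stromal cells. Levels of miR-214* were -11.85, -11.63 and -11.59 at 0 h, -8.51, -8.47 and -8.50 at 36 h, -11.15, -10.99 and -10.99 at 60 h, and -11.03, -11.18 and -10.97 at 72 h. It rose by 3.20 ± 0.12 at 36 h (adjusted p = 9.98e-10, limma) and changed by 0.65 and 0.63 later (3.19 and 3.24, both called, with snoRNA202), and its guide by 1.41, -1.48 and -1.71. Levels of miR-199b* were -18.13, -17.63 and -16.27 at 0 h, -13.74, -12.37 and -13.59 at 36 h, -16.23, -16.63 and -16.20 at 60 h, and -17.21, -17.28 and -17.67 at 72 h, a rise of 4.11 ± 0.47 at 36 h. At 72 h its change was -0.04 relative to U6, and 2.57 and called higher with snoRNA202. The star miR-146b*, of an immune miRNA, was found at 36 h alone, at -17.12, -16.27 and -16.29.

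The summed guide markers of other cell types were also highest at 36 h, although the stromal marker miR-145 was not, with a mean level of -3.41 at 0 h and -3.73 at 36 h. The summed level of 5 leukocyte miRNAs ranged from -5.38 to -5.34 at 0 h, -3.72 to -3.65 at 36 h, -6.57 to -6.44 at 60 h and -7.42 to -7.28 at 72 h. A sum weighs most the assay with the highest level, which at 0 h was miR-150. The mean level of miR-150 was -5.53, -5.12, -9.20 and -9.74 at 0, 36, 60 and 72 h. In contrast, miR-223 was at -12.62, -4.98, -8.57 and -8.81, and miR-142-3p at -18.22, -9.68, -12.31 and -12.61. Both were called higher than at 0 h at all later times, miR-155 at 36 and 60 h, and miR-146a at 36 h alone. At 0, 36, 60 and 72 h the endothelial miR-126-3p was between -4.80 and -4.68, between -2.52 and -2.49, between -6.55 and -6.45 and between -6.63 and -6.62. The 4 stromal miRNAs, which include the guides miR-199a-3p and miR-214, summed to -3.23 to -3.11, -2.76 to -2.70, -6.16 to -6.13 and -6.82 to -6.75. All 3 epithelial miRNAs were detected on all 3 arrays at 36 h, and only miR-203 was in the other groups. The erythroid miR-451 was detected on no 0 h array and was between -14.07 and -12.99 at 36 h. The part of these cells in the star strand changes was not tested.

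Star and guide were compared as changes from 0 h, in 1 fit over both strands. Some guide assays read a guide made by several hairpin copies. Among the stars set against such a guide were let-7c-1*, miR-16*, miR-24-1*, miR-24-2*, miR-29b*, miR-181a-1* and miR-218-1*. Their differences cannot be assigned to the strands of 1 hairpin. The star miR-199b* was set against the assay of miR-199a-3p. At 36 h 11 of 37 star strands of the 109 exceeded their guide by at least 2-fold and 11 fell short (limma, Benjamini-Hochberg adjusted p below 0.05), with a median difference of -0.10. At 60 h the counts were 13 and 7 of 31 (median 0.73), and at 72 h 14 and 6 of 30 (median 0.77). Over all rows of that fit, which also hold the star strands left out by the number list and the miR-24 copies, 25.6% and 30.2%, 38.2% and 26.5%, and 43.8% and 18.8% were higher and lower. At 72 h the split was 11 higher and 8 lower with snoRNA202 and 10 and 8 with both snoRNA135 and the mean of commonly detected miRNAs. Relative to U6, star and guide changes had opposite signs in 9, 9 and 10 pairs, of which 7, 7 and 9 were called apart. These signs move with the normalizer. All 3 comparisons share the 0 h arrays.

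**Figure D4:**
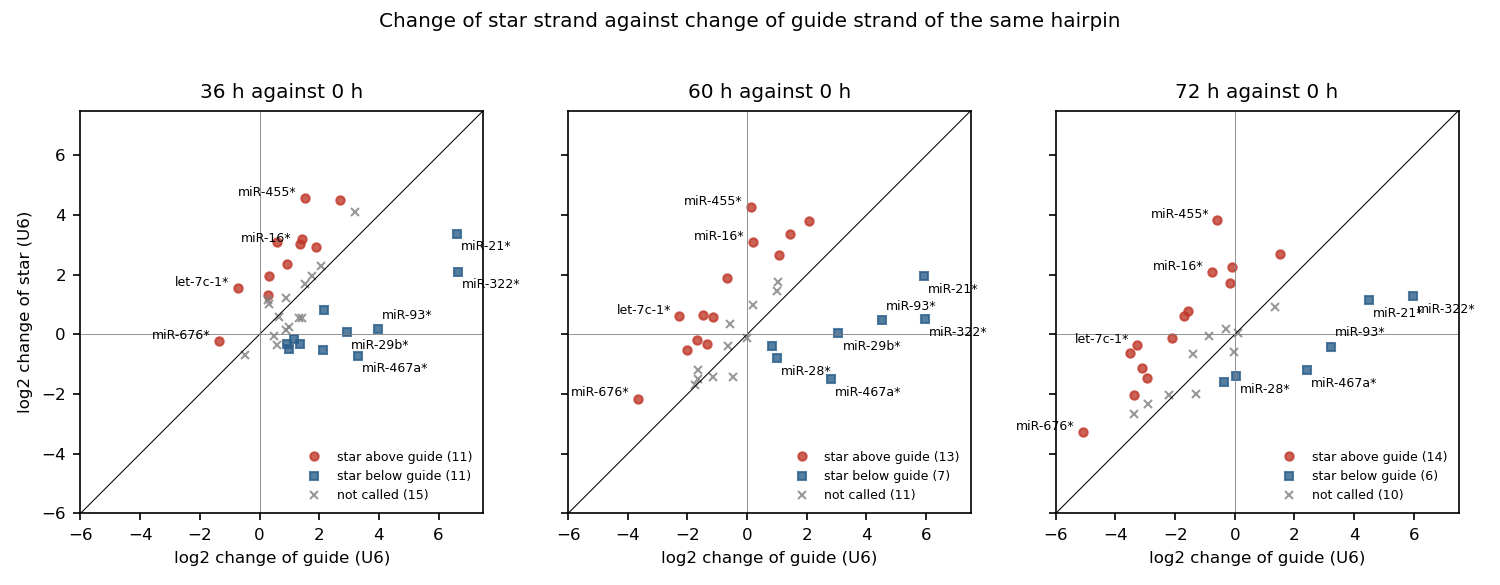
Log2 change of the star strand (vertical) against that of the guide of the same hairpin (horizontal), each relative to U6, at 36, 60 and 72 h against 0 h, 1 point per pair. Some guides are also made by other hairpin copies. Red circles are star strands called above their guide, blue squares below and grey crosses neither, and the line marks equal change. The stars miR-455*, miR-16* and let-7c-1* lie above the line at all 3 times, and miR-322*, miR-21*, miR-93* and miR-467a* below it.

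The same few pairs stood at both ends at each time. Above the line were miR-455*, miR-16*, miR-24-2*, let-7c-1*, miR-214*, miR-99b* and the rat assay of miR-99a*, whose stars were called above their guides at 36, 60 and 72 h under all 4 normalizers, as was miR-676*, which fell less than its guide relative to U6. Below it were miR-322*, miR-21*, miR-93* and miR-467a*, likewise under all 4. The star miR-467a*, of a rodent-specific cluster, was at -8.80, -8.54 and -8.04 at 0 h and between -10.07 and -8.73 later, with changes of -0.71, -1.51 and -1.21, while its guide rose by 3.29, 2.80 and 2.42.

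**Figure D5:**
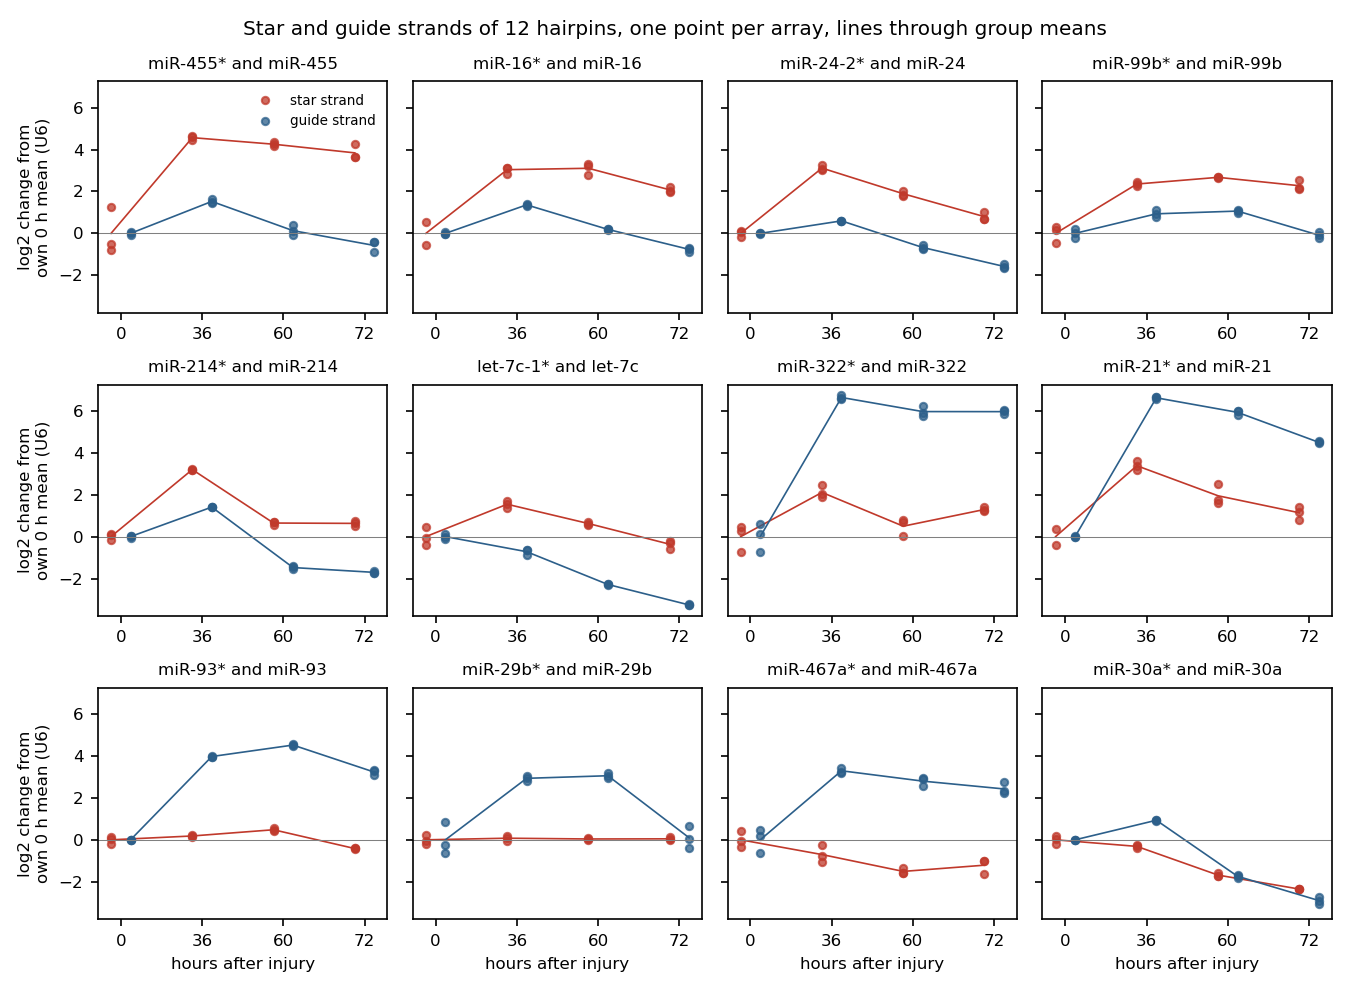
Log2 change from the assay's own 0 h mean, relative to U6, of the star strand (red) and guide strand (blue) of 12 hairpins at 0, 36, 60 and 72 h, one point per array, lines through group means. In the upper 6 panels the star rises more than its guide or falls less, in miR-322, miR-21, miR-93 and miR-467a the guide rises more, and miR-29b* stays flat. For miR-16* and miR-21* the 0 h mean is that of 2 arrays.

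Nearly all these pairs cross cards, since the guide was on card A for 100 of 103 and all stars were on card B. The median change of all assays on card A at 36, 60 and 72 h came to 0.91, -0.49 and -1.37, and that of the card B assays outside the 109 to -0.12, -0.60 and -0.38. At 36 and 72 h the gap between cards, which ran in opposite directions, was of the size of many pair differences. In the 2 tested pairs with both strands on card B, star minus guide was also taken within each array. For miR-22* it changed by 0.16, 0.94 and 0.73 and for miR-877* by -0.22, -0.96 and -1.23, of which the last was called (adjusted p = 4.17e-06, limma on these within-array values).

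Between later times star strands mostly fell relative to U6. From 36 to 60 h 16 of 53 fell and 2 rose (median -0.74), beside 49.5% and 5.38% (54.8% in all) of all 279 assays (median -1.02). With snoRNA202 3 star strands fell and 20 rose, beside 54 and 94 of all assays. The largest falls were those of miR-199b* (3.12 ± 0.47, on the log2 scale), miR-125b* (2.81 ± 0.32) and miR-214* (2.55 ± 0.12), which also fell with snoRNA202, by 1.68, 1.37 and 1.11. The 2 that rose were miR-20a* and miR-106b*, and the call of miR-106b* was lost when any of 4 single arrays was left out and with the replicate number as a block. With the mean of commonly detected miRNAs 12 star strands rose and 6 fell, beside 75 and 64 of all assays.

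From 60 to 72 h 16 of 49 fell and 0 rose in limma (median -0.71), beside 35.8% and 0.755% (36.6% in all) of 265 assays (median -0.75). At an unadjusted p under 0.05, whatever the fold, 3 were higher. With snoRNA202 14 star strands fell and 0 rose, beside 37 and 9 of all assays. The largest falls were those of miR-106b* (2.43 ± 0.39) and miR-20a* (2.10 ± 0.28), then miR-33* and let-7g*, and miR-17*. All 5 also fell under snoRNA202, snoRNA135 and the mean of commonly detected miRNAs. With that mean 6 star strands were lower and 2 higher, beside 17 and 25 of all assays.

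For 6 star strands the cards hold a mouse and a rat assay of the same name. Both were detected on all 12 arrays for miR-125b* and miR-7a*, and both assays gave close changes. The star miR-7a* changed from 0 h by 1.44, 1.82 and 0.69 on the mouse assay and by 1.65, 1.99 and 0.56 on the rat assay. The mouse assays of miR-135a* and miR-28* were detected on 12 arrays, that of miR-20a* on 9 and that of miR-24-1* on 5, and the rat assays of these 4 on none.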

How the data were processed

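Total RNA of 12 samples, extracted with Trizol per the labels' protocols, was measured on TaqMan rodent microRNA A and B cards (24 arrays) over 40 cycles. The deposited tables of single arrays hold the authors' threshold cycle (Ct) per spot, not scaled to a control. The sources used here do not give the software or threshold behind it. Card type was read from the assay names. The authors' tables over all arrays, whose header gives the last time as day 3.5 where the labels give 72 h, were not used, nor were their 84 columns of per-sample values.

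From the deposited Ct values, log2 levels were computed as mean U6 Ct (4 spots per array) minus the mean Ct of an assay. Spots without a Ct or at Ct 35 and above left an assay undetected and its value out. The tests of change were made with limma 3.58.1 (R 4.3.3), as 1 fit of 12 arrays per card, for assays with at least 2 detected arrays in both groups. P-values were adjusted with Benjamini-Hochberg over both cards, and calls needed an adjusted p under 0.05 and 2-fold. Star against guide was the interaction of strand and time in 1 fit over all hairpins with both assays. Scripts were tested on simulated data. Tables used Python 3.11.15 and pandas 2.3.3, figures matplotlib 3.10.9. An "at least" fold sets the group mean against the level at Ct 35 in the undetected group.

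Members and lists were chosen with earlier results of these data known. Star strands were named where they were among the 10 largest called changes each way, the 5 largest differences each way among those detected in 1 group alone, or the 6 largest called differences from the guide each way, or were members of 15 family lists detected on all arrays of a group. No pairing of arrays by replicate number was used: arrays of the same number correlated in their deviations from group means with a median r of 0.01 (card A) and -0.02 (card B). With 3 arrays a group, their number limits the precision; the median SD of a star strand over 3 arrays was 0.28 at 0 h and 0.15 to 0.17 later.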

Additional observations from a re-analysis of the deposited data

Results flagged for a closer look

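The star strand miR-125b* differed in direction between times, rising at 36 h and falling relative to U6 at 60 h (-1.49) and 72 h (-2.68). The difference between 36 and 60 h was tested directly, with a fall of 2.81 ± 0.32 (adjusted p = 9.68e-06, limma), and it fell with snoRNA202 as well (-1.37). The rat assay of miR-125b* showed the same turn, with -1.19 at 60 h and -2.03 at 72 h, and a fall of 2.36 from 36 to 60 h, which with snoRNA202 was -0.92 and not called. The comparisons with 0 h share the 0 h arrays. Both assays are named for miR-125b*, and whether they read the same sequence was not tested. The summed markers of other cell types were also highest at 36 h, and their part was not tested.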

How the results depend on the processing

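Of the 121 called changes and star minus guide differences covered by the naming rule, 19 no longer had the same direction with snoRNA202. At 36 h this was miR-135a* (0.07). At 60 h they were miR-676* (0.40), miR-30a* (0.86), miR-467a* (1.04), miR-125b* (1.06), miR-877* (1.12), miR-30e* (1.13) and the rat assay of miR-125b* (1.35). At 72 h they were miR-33* (0.02), miR-30a* (0.26), miR-30e* (0.57), the rat assay of miR-125b* (0.58), let-7g* (0.62), let-7a* (0.66), miR-877* (1.03), miR-26b* (1.15) and miR-181a-1* (1.47), and from 36 to 60 h miR-21* (0.00) and miR-30a* (0.07). The same held for 8 called changes outside that set. At 72 h they were miR-28* (1.20) and miR-467a* (1.40). From 36 to 60 h they were miR-9* (0.04, on 2 arrays at 36 h), miR-22* (0.11), miR-28* (0.11), miR-30e* (0.19), miR-24-2* (0.21) and miR-674* (0.37). Of all these values, those of 1.03 and above were called higher with snoRNA202, and the others were not called. The mean level of snoRNA202 itself fell against U6; the cause was not tested.

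Counts of star strands higher and lower under snoRNA202 were 42 and 0 at 60 h, 36 and 0 at 72 h, and 20 and 3 from 36 to 60 h, and at 36 h 0 were lower with snoRNA202 and with snoRNA135. With the mean of commonly detected miRNAs they were 15 and 7 at 36 h, 12 and 6 from 36 to 60 h, and 2 and 6 from 60 to 72 h, and 7 stars fell short of their guide at 36 h. A detection limit of Ct 32, which tests fewer assays, gave 9 higher at 60 h and 5 higher and 7 lower at 72 h. Star above and below guide were then 6 and 5 at 36 h, 7 and 4 at 60 h, and 6 above at 72 h. Setting undetected values to Ct 35 gave 13 lower at 60 h, and 27, 23 and 18 stars below their guide. Hairpins with both strands on card B, of which 2 could be tested, gave 0 above and 0 below at 36 h and at 60 h, and 0 above and 1 below at 72 h.

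With the replicate number as a block, 1 star strand was higher from 36 to 60 h (2 without it), the difference between the miR-24 stars was -3.54, and no other named call changed. Leaving out each array in turn gave 22 to 28 higher and 1 to 2 lower at 36 h, 11 to 14 and 7 to 7 at 60 h, 7 to 10 and 12 to 15 at 72 h, 1 to 3 and 15 to 18 from 36 to 60 h, and 0 to 0 and 14 to 18 from 60 to 72 h. For star above and below guide the ranges were 6 to 11 and 9 to 11, 11 to 13 and 6 to 8, and 11 to 14 and 5 to 7, and for the miR-24 stars -3.84 to -3.04. The difference of miR-29a* from its guide lost its call without any one of 9 arrays at 36 h and of 4 at 60 h, with the lowest values, 0.84 and 0.98, without 0 h replicate 2. Without that array the change of miR-322* at 72 h was 0.92, without a call. A limit of Ct 40 and the median of spots changed none of the 121 calls.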
